A study of Mus musculus with 16 samples.

Results

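The comparison described here set left ventricles of sham-operated PPARalpha knockout mice (KO sham, 4 arrays) against those of sham-operated wild-type mice (WT sham, 4 arrays). These are 8 of the 16 arrays of the study, chosen by the genotype and operation in each array's title. The other 8 arrays, also 4 per genotype, came from hearts under transverse aortic constriction (TAC), a ligature that loads the left ventricle with pressure. All mice were studied 28 days after surgery. Total RNA was hybridised to 1-colour Affymetrix whole-genome mouse arrays. The sham groups differ in genotype, PPARalpha-/- or wild type, and share the operation, so their difference is the basal one, without pressure overload. The sources used here do not give strain, sex, age, housing or whether the mice were littermates, so the knockout and any difference in genetic background cannot be told apart. The titles number the arrays 1 to 4 in each group without saying that each is a separate animal, so the p-values reflect how far these samples scatter, and that scatter may be technical. The number of arrays limits the precision of each value.

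PPARalpha is a nuclear receptor that binds fatty acids and their derivatives, pairs with the retinoid X receptor and drives transcription from response elements made of repeated hexamers. In heart muscle it is best known for keeping up the genes of fatty acid import, mitochondrial and peroxisomal oxidation and lipid storage. It also induces pyruvate dehydrogenase kinase, which holds back glucose oxidation.

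Values below are the deposited signals, in arbitrary units scaled to a common trimmed mean of 500 on every array, for the brightest probe set of each gene. Differences are KO minus WT on the log2 scale with their standard errors (n = 4 and 4). A gene was called when its Benjamini-Hochberg adjusted p in limma was under 0.05 among the 10916 genes left after the dimmest 40% were set aside. The 8 sham arrays were alike in quality. Median signal was 123.1 to 132.4 in WT sham and 123.9 to 141 in KO sham, and the mean correlation of an array with its own group was 0.965 to 0.969 and 0.960 to 0.962. The 12 cardiomyocyte markers, among them the myosin Myh6 and the troponins Tnnt2 and Tnni3, summed to signals of 641816 to 759939 in WT sham and 698282 to 844270 in KO sham, so the samples carried the labelled muscle in both genotypes.

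In the knockout 56 genes fell and 25 rose, 81 calls in all. That is 0.742% of the genes tested, 0.513% lower and 0.229% higher. The gene lists below were chosen with earlier results of these data known, so their counts are descriptions and no independent test. The median change was -0.86 for the falls and 0.85 for the rises, against 0.02 over all genes. At least 2-fold changes numbered 22 among the falls and 9 among the rises, and the median sham log2 level was 11.12 for genes that fell, 9.13 for genes that rose and 9.32 for all genes. The 4 WT and 4 KO arrays did not overlap for any of the 81 calls, a separation met by 5.91% of all genes. The rises numbered 16, 15 and 9 without WT sham replicate 2, 3 or 4, and 11 without KO sham replicate 4. With arrays centred on their medians, 35 genes fell and 7 rose. With the 8 sham arrays fitted alone, 28 fell and 10 rose. Of the 81 genes, 18 were called in all 21 alternative settings, 17 falls and the rise of Bex1, and 46 were called whichever sham array was left out.

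**Figure D1:**
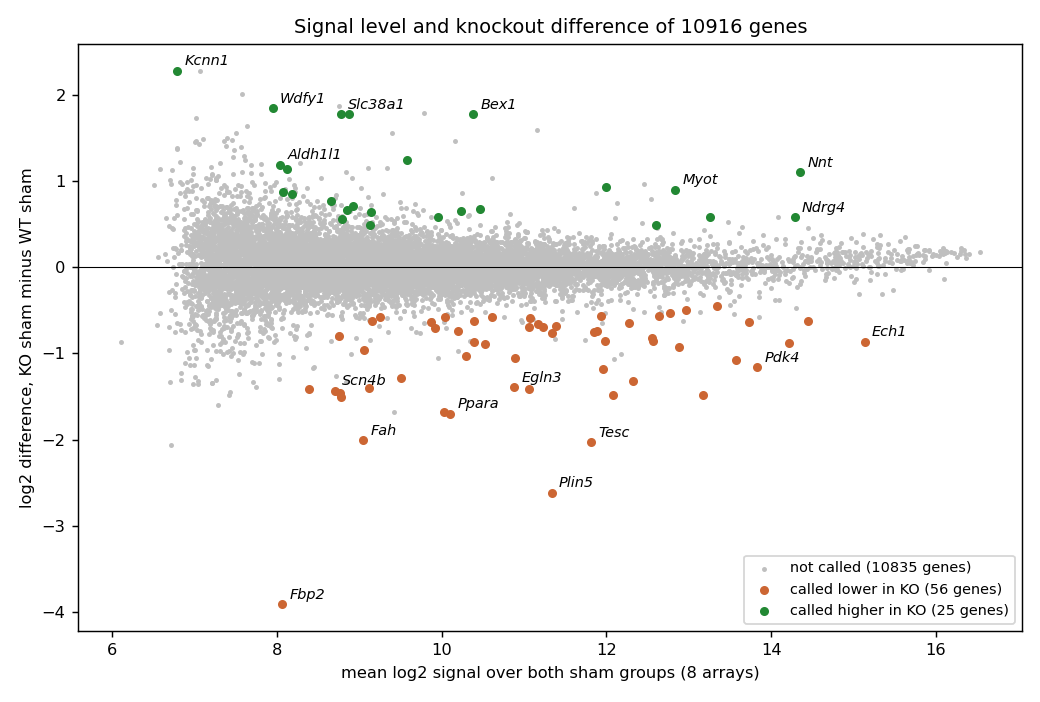
Each point is 1 of the 10916 genes, with its mean log2 signal over the 8 sham arrays on the horizontal axis and its log2 difference, KO sham minus WT sham, on the vertical axis; orange marks the 56 genes called lower, green the 25 called higher and grey the rest. The orange points reach down to Fbp2 at -3.91, and 45 of the 56 lie above the all-gene median level, against 11 of the 25 green points.

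Ppara, the targeted gene, read 2308, 1969, 1546 and 2214 in WT sham replicates 1 to 4 and 727, 562, 652 and 524 in KO sham replicates 1 to 4. The KO arrays were all below the lowest WT array (-1.70 ± 0.17, adjusted p = 5.71e-05 in limma), yet their signal did not drop to the array floor of 11.9. The gene's other probe sets differed by -2.18 and -1.23. The sources used here do not say how the gene was disrupted or whether any of the 3 lies in the altered stretch. Of 30 genes that flank Ppara, 15 on each side, 19 were tested and none was called by limma. Their differences ran from -0.59 to 0.46 with a median of -0.01, and the smallest adjusted p among them was 0.0521, for Gramd4. In the TAC arrays Gramd4 (-0.61, adjusted p = 0.0242 in limma) and Cdpf1, the gene next to Ppara (-0.70, adjusted p = 0.0311), were lower in the knockout.

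Fbp2, the muscle fructose bisphosphatase that runs a step of glycolysis backwards, showed the largest change of any gene called. Its signal was 1102, 1079.6, 995 and 990 in WT sham replicates 1 to 4 and 103, 45.7, 143 and 34.3 in KO sham replicates 1 to 4. The WT arrays lay close together, while the KO arrays were all far below them and differed among themselves (-3.91 ± 0.39, adjusted p = 5.52e-05). It was the only one of 22 glycolysis and gluconeogenesis genes called, and the list had a median difference of 0.14, against 0.02 over all genes tested. After quantile normalization these medians were 0.05 and 0.01. Fbp2 was called in every alternative setting that tested it, and it dropped out of the test where the dimmest 60% of genes were set aside.

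Genes of lipid storage and membrane lipid synthesis fell beside it. Plin5, a coat protein that ties lipid droplets to mitochondria, read 7049, 6633, 6487 and 5541 in WT sham replicates 1 to 4 and 849, 1366, 1249 and 819.6 in KO sham replicates 1 to 4. The KO arrays were all far below the lowest WT array, and KO sham replicates 1 and 4 were the lowest (-2.62 ± 0.17, adjusted p = 1.25e-06). Of 26 genes for lipid droplets, lipases and triglyceride synthesis, 4 fell (15.4%, against 0.513% of all genes) and none rose. The list median was -0.14. The other 3 make glycerolipids: Gpam (-0.82 ± 0.10, adjusted p = 0.000349) and Gpat3 (-0.80 ± 0.15, adjusted p = 0.0169) attach the first acyl chain to glycerol phosphate, and Agpat2 (-0.69 ± 0.13, adjusted p = 0.0136) attaches the next. Outside that list, grouped after their values were seen, the phosphatidylcholine enzymes Chkb (-0.58 ± 0.09), a choline kinase, and Chpt1 (-0.45 ± 0.09), which joins choline to diacylglycerol, also fell, as did the cholesterol ester hydrolase Nceh1 (-0.75 ± 0.11). Adjusted p exceeded 0.05 for Gpat3 with WT sham 2, WT sham 4, KO sham 3 or KO sham 4 left out (0.0553 to 0.068) and for Chpt1 whichever of the 8 sham arrays was left out (0.0515 to 0.091).

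Fatty acid oxidation, the receptor's best known programme, is given here briefly. Of 23 mitochondrial genes tested, 10 fell (43.5%, against 0.513% of all genes) and none rose, with a list median of -0.31. The largest of these falls were the carnitine carrier Slc25a20 (-1.49 ± 0.23), the dienoyl-CoA reductase Decr1 (-1.48 ± 0.11), the inner-membrane carnitine transferase Cpt2 (-1.32 ± 0.10) and Etfdh (-1.07 ± 0.11), which passes electrons on to ubiquinone. Their array means did not overlap between genotypes, at -0.06 to 0.06 in WT sham and -0.48 to -0.38 in KO sham on the log2 scale relative to the WT mean. Among 16 genes of fatty acid uptake, activation and binding, the list median was 0.12, which was 0.04 after quantile normalization. Of these genes Dbi, the acyl-CoA binding protein, alone fell (-0.50 ± 0.10, adjusted p = 0.0259 in limma). None of 8 acyl-CoA thioesterases was called. Acot2, the mitochondrial thioesterase, had a difference of -1.06 ± 0.28, adjusted p = 0.145, and Them4, another mitochondrial thioesterase, -0.26 ± 0.14. The adjusted p was above 0.05 for Dbi with WT sham 1, WT sham 2, WT sham 3, WT sham 4, KO sham 1, KO sham 3 or KO sham 4 left out (0.0545 to 0.102).

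Among 28 peroxisomal genes 4 fell (14.3%, against 0.513% of all genes) and none rose, with a median of -0.09. Ech1, a dienoyl-CoA isomerase of peroxisomes and mitochondria, had the smallest adjusted p of them and read 46959.9, 48388, 48065 and 51036 in WT sham replicates 1 to 4 and 25753, 30043, 25302 and 25845 in KO sham replicates 1 to 4. All WT arrays were above all KO arrays, of which replicate 2 was the highest (-0.87 ± 0.09, adjusted p = 8.8e-05). The fatty acyl-CoA importer Abcd3 (-0.74 ± 0.12, adjusted p = 0.00838), the division factor Pex11a (-0.71 ± 0.15, adjusted p = 0.0435) and the bifunctional enzyme Hsd17b4 (-0.66 ± 0.11, adjusted p = 0.0107) were the others. Further calls encode proteins found in peroxisomes but lie outside the list, again grouped after the fact: Hsdl2 (-0.86 ± 0.16), a sterol carrier domain dehydrogenase, and Dhrs4 (-0.70 ± 0.10), which reduces retinal. Calls were lost (adjusted p in parentheses) for Hsdl2 with WT sham 3, WT sham 4, KO sham 1 or KO sham 4 left out (0.0576 to 0.0769), and for Pex11a whichever of the 8 sham arrays was left out (0.0544 to 0.159).

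Genes known as PPARalpha targets mainly from liver counted 5 falls (20%, against 0.513% of all genes) and no rise among 25 tested. Their median was -0.21. Me1, the cytosolic malic enzyme that makes NADPH, read 2543, 2889, 2658 and 2859 in WT sham replicates 1 to 4 and 1140.2, 1377, 1612 and 1189 in KO sham replicates 1 to 4. The KO arrays were all below the lowest WT array (-1.05 ± 0.13, adjusted p = 0.000601). Ephx2, the soluble epoxide hydrolase, fell by a similar amount (-0.86 ± 0.12, adjusted p = 0.00153), as did Retsat, the retinol saturase (-0.87 ± 0.15, adjusted p = 0.0125). Pdk4, the kinase that switches pyruvate dehydrogenase off, read 14776, 24295, 25729.8 and 24170.2 in WT sham replicates 1 to 4 and 14341, 11063, 6978 and 8048 in KO sham replicates 1 to 4. WT sham replicate 1, the lowest of its group, was barely above KO sham replicate 1, the highest of the other (-1.16 ± 0.21, adjusted p = 0.0164).

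The mitochondrial uncoupling protein Ucp3, which accompanies high fatty acid flux, fell too. Its signal was 499.5, 711, 1173 and 661 in WT sham replicates 1 to 4 and 316, 149, 306 and 329 in KO sham replicates 1 to 4, and the highest WT array was replicate 3 (-1.46 ± 0.29, adjusted p = 0.0239). The call was not kept (adjusted p in parentheses) for Ucp3 with WT sham 2, WT sham 3, WT sham 4 or KO sham 2 left out (0.0569 to 0.0739), and for Pdk4 with WT sham 2, WT sham 3, WT sham 4, KO sham 3 or KO sham 4 left out (0.0534 to 0.0666). In the pyruvate dehydrogenase list Pdk4 was the single call of 14, and among 4 uncoupling and adenine nucleotide carrier genes Ucp3 was.

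**Figure D2:**
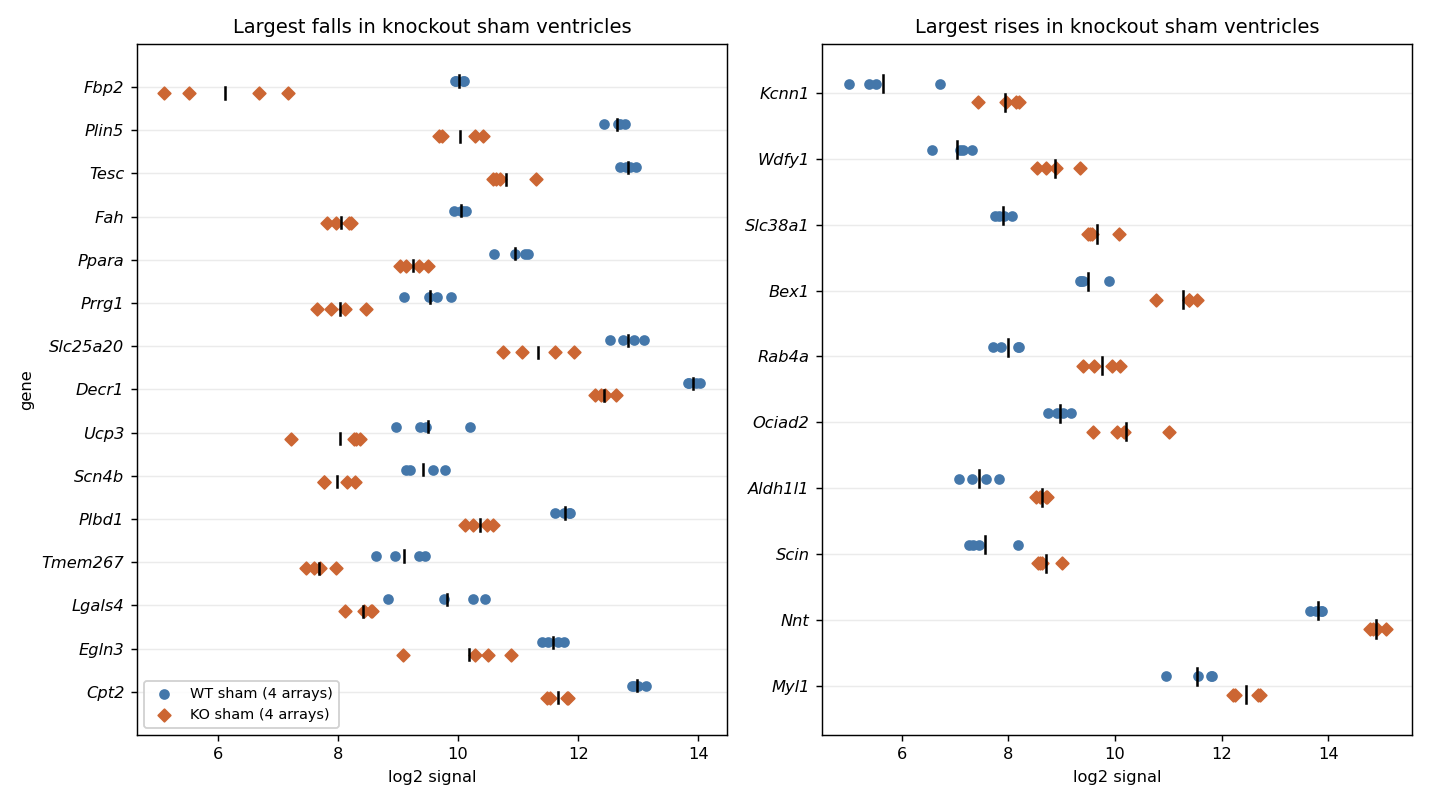
Log2 signals of the genes named here with the largest falls (left panel, 15 genes) and rises (right panel, 10 genes) in knockout sham ventricles; blue circles are the 4 WT sham arrays, orange diamonds the 4 KO sham arrays, and the black bar is the group mean. The groups do not overlap for any of these genes, and Fbp2 spans the widest gap, with KO signals of 34.3 to 143.3 against 990 to 1102 in WT.

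Other falls lay in lists unrelated to fatty acids or outside all lists. Outside all lists were 27 of the 56 falls, which include Chkb, Chpt1, Nceh1, Hsdl2 and Dhrs4, described above with lipid and peroxisomal genes. Tesc, tescalcin, a calcium-binding protein that associates with the sodium-hydrogen exchanger, read 7972, 7451, 7152 and 6665 in WT sham replicates 1 to 4 and 1669, 2517, 1524 and 1579.8 in KO sham replicates 1 to 4. The groups were far apart, and KO sham replicate 2 was the highest knockout array (-2.03 ± 0.17, adjusted p = 7.61e-06). Fah, fumarylacetoacetate hydrolase, which ends the breakdown of tyrosine, read 1128, 976, 1058 and 1083 in WT sham replicates 1 to 4 and 289.9, 226, 298 and 249 in KO sham replicates 1 to 4. Both groups were tight and far apart (-2.00 ± 0.10, adjusted p = 6.22e-08), and its adjusted p was the smallest of the comparison. It was the only one of 21 other amino acid breakdown genes called.

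Scn4b, the sodium channel beta-4 subunit, was the single call among 26 cardiac ion channel genes, reading 876, 767, 587 and 562 in WT sham replicates 1 to 4 and 217, 283, 313 and 217 in KO sham replicates 1 to 4. All KO arrays were below the lowest WT array, replicate 4 (-1.43 ± 0.24, adjusted p = 0.00791). Plbd1, a phospholipase B-like protein of the lysosome, read 3145, 3693, 3489 and 3723 in WT sham replicates 1 to 4 and 1424, 1531, 1221 and 1114 in KO sham replicates 1 to 4. Its WT arrays were all well above the highest KO array, replicate 2 (-1.42 ± 0.13, adjusted p = 2.01e-05). Scarb2, the lysosomal membrane protein that carries glucocerebrosidase to the lysosome, read 5409.5, 5638, 5628 and 7441 in WT sham replicates 1 to 4 and 2207, 2995, 2989 and 2463 in KO sham replicates 1 to 4, and WT sham replicate 4 was the highest array (-1.18 ± 0.14, adjusted p = 0.000422). The lysosomal genes Plbd1 and Scarb2 were grouped after their values were seen. Fuca2, a fucosidase, fell as well (-0.93 ± 0.17, adjusted p = 0.0136).

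Prrg1, a vitamin K-dependent membrane protein, Lgals4, a galectin, and Tmem267, a membrane protein, fell too. Prrg1 read 550.4, 807, 941 and 728 in WT sham replicates 1 to 4 and 276, 200.2, 355 and 236 in KO sham replicates 1 to 4, with WT above KO throughout (-1.51 ± 0.23, adjusted p = 0.00418). Lgals4 read 456, 872, 1211 and 1393 in WT sham replicates 1 to 4 and 347, 276, 375 and 381 in KO sham replicates 1 to 4. Its WT arrays were widely spread, and WT sham replicate 1 was close to the KO arrays (-1.40 ± 0.28, adjusted p = 0.0255). Tmem267 read 655, 396, 698 and 495 in WT sham replicates 1 to 4 and 195, 249, 208 and 176 in KO sham replicates 1 to 4 (-1.41 ± 0.26, adjusted p = 0.0153).

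Egln3, a prolyl hydroxylase that marks hypoxia-inducible factors in the presence of oxygen, read 3228, 2903, 2709 and 3466 in WT sham replicates 1 to 4 and 1881, 1452, 1246 and 544 in KO sham replicates 1 to 4. Its lowest value was KO sham replicate 4 (-1.39 ± 0.27, adjusted p = 0.0231). Nr4a3, an orphan nuclear receptor induced by hormones and stress, read 1211, 1056, 1286 and 1008 in WT sham replicates 1 to 4 and 456, 448, 701 and 323 in KO sham replicates 1 to 4, with all KO arrays below all WT arrays (-1.29 ± 0.25, adjusted p = 0.0197). Adjusted p was over 0.05 for Egln3 with WT sham 1, WT sham 2, WT sham 3, WT sham 4 or KO sham 3 left out (0.0508 to 0.0816), for Lgals4 with WT sham 2, WT sham 3, WT sham 4, KO sham 1, KO sham 2, KO sham 3 or KO sham 4 left out (0.0544 to 0.0949), for Nr4a3 with WT sham 1, WT sham 2, WT sham 3, KO sham 1, KO sham 2 or KO sham 4 left out (0.0501 to 0.0745) and for Tmem267 with WT sham 1, WT sham 3 or KO sham 4 left out (0.0553 to 0.0621). Other calls outside the lists included Coq3 (-0.89 ± 0.13, adjusted p = 0.00241), a methyltransferase of ubiquinone synthesis, and P3h4 (-0.96 ± 0.12, adjusted p = 0.000523), a partner of collagen-modifying hydroxylases.

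Of the 25 rises, 5 were in the lists and 20 outside them. Bex1, a small signalling adaptor abundant in neurons, read 678, 645, 946 and 656 in WT sham replicates 1 to 4 and 2669, 2676, 1746 and 2960 in KO sham replicates 1 to 4. All KO arrays were above the highest WT array, and WT sham replicate 3 was the highest of its group (1.77 ± 0.21, adjusted p = 0.000339). Slc38a1, a sodium-coupled glutamine transporter, read 269, 215, 242 and 226 in WT sham replicates 1 to 4 and 1074, 736, 759.6 and 724 in KO sham replicates 1 to 4, with KO sham replicate 1 the highest (1.78 ± 0.15, adjusted p = 1.43e-05). Slc38a1 was the single call among 21 transporters. Its other probe set, the brighter one in WT sham, differed by -0.07.

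Aldh1l1, a folate dehydrogenase, was the single call among 13 one-carbon genes and read 159.8, 135, 226 and 191 in WT sham replicates 1 to 4 and 389, 368, 422 and 418 in KO sham replicates 1 to 4. The groups were well apart (1.19 ± 0.16, adjusted p = 0.00153). Nnt, the mitochondrial transhydrogenase that makes NADPH from NADH, read 12964, 13989, 14905 and 15141 in WT sham replicates 1 to 4 and 29235, 28077, 30835 and 34447 in KO sham replicates 1 to 4. All KO arrays were far above the highest WT array, replicate 4 (1.10 ± 0.10, adjusted p = 3.2e-05). Gsta4, a glutathione transferase for lipid aldehydes, was the other rise among 26 NADPH and glutathione genes (0.49 ± 0.10, adjusted p = 0.0239), where Me1 was the fall. Adjusted p exceeded 0.05 for Gsta4 with WT sham 2, WT sham 3, WT sham 4, KO sham 2, KO sham 3 or KO sham 4 left out (0.0683 to 0.0912). Some inbred mouse strains lack part of Nnt, and as the strain here is not stated, that cannot be told apart from the knockout.

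Kcnn1, a calcium-activated potassium channel, read 45.7, 105, 32.3 and 41.6 in WT sham replicates 1 to 4 and 173, 294, 248 and 282 in KO sham replicates 1 to 4. Both groups were dim, and WT sham replicate 2 was the highest WT array (2.28 ± 0.47, adjusted p = 0.0338 in limma). The Kcnn1 probe set was chosen, and kept by the filter on dim genes, by its mean over all arrays. The KO arrays, where it was bright, had a part in that, so the p-value is not free of the choice. The gene's other probe set, the brighter one in WT sham, differed by -0.02. Wdfy1, an endosomal adaptor, read 94.6, 159, 137 and 142 in WT sham replicates 1 to 4 and 473, 369.7, 420 and 652 in KO sham replicates 1 to 4 (1.84 ± 0.37, adjusted p = 0.0269). Rab4a, a small GTPase of recycling endosomes, read 295, 288, 233 and 210.4 in WT sham replicates 1 to 4 and 674, 982, 1088 and 784 in KO sham replicates 1 to 4, with all KO arrays above all WT arrays (1.77 ± 0.33, adjusted p = 0.0169). The adjusted p was above 0.05 for Kcnn1 with WT sham 1, WT sham 3, WT sham 4, KO sham 2, KO sham 3 or KO sham 4 left out (0.0882 to 0.118), for Wdfy1 with WT sham 1, WT sham 2, WT sham 3, WT sham 4, KO sham 1, KO sham 3 or KO sham 4 left out (0.0557 to 0.112) and for Rab4a with WT sham 3, WT sham 4, KO sham 2 or KO sham 3 left out (0.0575 to 0.0656).

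Ociad2, a protein of mitochondria and endosomes, read 479.6, 576, 523 and 429 in WT sham replicates 1 to 4 and 1056, 771, 2057 and 1151 in KO sham replicates 1 to 4, with KO sham replicate 3 the highest array (1.24 ± 0.26, adjusted p = 0.0388). Scin, an actin-severing protein, read 174, 162, 289.8 and 154 in WT sham replicates 1 to 4 and 396, 377, 515 and 386 in KO sham replicates 1 to 4 (1.14 ± 0.22, adjusted p = 0.0231). Both were calls that leaving out 1 array could end: adjusted p exceeded 0.05 for Ociad2 with WT sham 1, WT sham 2, WT sham 3, WT sham 4, KO sham 1, KO sham 3 or KO sham 4 left out (0.0706 to 0.138), and for Scin with WT sham 1, WT sham 2, WT sham 4, KO sham 1, KO sham 3 or KO sham 4 left out (0.0518 to 0.0905). Smaller rises included Irgm2 (0.87 ± 0.14, adjusted p = 0.00674), an interferon-inducible GTPase, and Fcna (0.67 ± 0.13, adjusted p = 0.027), a lectin made by macrophages. Calls were lost (adjusted p in parentheses) for Fcna with WT sham 1, WT sham 2, WT sham 3, WT sham 4 or KO sham 4 left out (0.0621 to 0.0905).

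Sarcomere genes gave 1 rise and no fall among 35 tested. It was Myot, a Z-disc protein, at 5019, 5427, 6340.4 and 4730.1 in WT sham replicates 1 to 4 and 11232, 11119.6, 9727 and 8154 in KO sham replicates 1 to 4, with all KO arrays above all WT arrays (0.90 ± 0.16, adjusted p = 0.0125). Myl1, the essential myosin light chain of fast skeletal muscle, which belonged to no list, read 3548, 3621, 3014 and 1979 in WT sham replicates 1 to 4 and 6689, 6518, 4757 and 4873 in KO sham replicates 1 to 4 (0.93 ± 0.19, adjusted p = 0.0311); adjusted p exceeded 0.05 for Myl1 with WT sham 3, WT sham 4, KO sham 1, KO sham 2 or KO sham 4 left out (0.0521 to 0.116) and for Myot with WT sham 4 left out (0.054). None of 22 hypertrophy and fetal genes was called by limma. Myh7, the slow myosin heavy chain, had a difference of 1.59 ± 0.41, adjusted p = 0.138, and Nppa, atrial natriuretic peptide, 0.45 ± 0.16, adjusted p = 0.326. The 7 atrial markers, among them Nppa, summed to 25385, 28700, 22915 and 16009 in WT sham and 29443, 28728, 28829 and 56630 in KO sham, KO sham replicate 4 being the highest. These sums were parted only by the small gap between KO sham replicate 2 and WT sham replicate 2, and the mean log2 levels of the 4 bright enough to test overlapped, at -2.37 to 1.68 in WT sham and -0.38 to 3.10 in KO sham relative to the WT mean. None of these 4 was called, with Myl4 at 1.04 ± 0.79, adjusted p = 0.794. Skeletal muscle markers, Myot among them, summed to 5401.4 to 7127.6 in WT sham and 9217.3 to 12383 in KO sham; Myot itself supplied 4730.1 to 6340.4 and 8154 to 11232 of this, and 9 of the 11 were too dim to test. The part of atrial or skeletal muscle in the Myot and Myl1 rises was not tested.

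Macrophage markers, 14 genes with a median of 0.26, summed to 27835 to 30548 in WT sham and 31925 to 35145 in KO sham, again without overlap. Cd68, a lysosomal marker of macrophages, had a difference of 0.58 ± 0.16, adjusted p = 0.167. Fcna rose beside them, and the markers' part in it was not tested. Smooth muscle and pericyte markers summed to 46343 to 48940 in WT sham and 38452 to 43336 in KO sham. The mean log2 levels of the 8 tested overlapped, at -0.05 to 0.06 in WT sham and -0.27 to 0.21 in KO sham relative to the WT mean. Of these 8 genes, 3 differed above 0 and 5 below. Endothelial and fibroblast markers overlapped, at 17366 to 19540 against 17107 to 19461 and 69930 to 79458 against 68234 to 81144. No marker gene of these lists other than Myot was called. In bulk ventricle fewer cells of a type and less RNA per cell cannot be told apart.

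The following lists of mitochondrial energy metabolism gave no call, while Nnt and Coq3, which lie outside them, were called as given above. None of 70 respiratory chain and ATP synthase genes was called by limma, and their differences ran -0.12 to 0.24 with a median of 0.07, which was -0.03 after quantile normalization. Among 19 tricarboxylic acid cycle genes the range was -0.16 to 0.20. The 53 mitochondrial ribosomal proteins ran -0.24 to 0.28 and the 21 genes of branched-chain amino acid breakdown -0.14 to 0.47, all without a call. The 5 ketone body genes ranged more widely, -0.40 to 1.496, also without a call. Among them Acat1, the thiolase that ends ketone breakdown, had a difference of -0.38 ± 0.09, adjusted p = 0.0768, and Bdh1, the hydroxybutyrate dehydrogenase, 0.52 ± 0.15, adjusted p = 0.224. The 16 glycogen genes also gave no call.

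Other lists without a call held genes with sizeable but scattered differences. Extracellular matrix, 42 genes, had a median of -0.04, and its member with the smallest p was Ltbp2, a matrix latency protein, at -1.33 ± 0.35, adjusted p = 0.138. The 30 sterol and fatty acid synthesis genes had a median of -0.0015. Superoxide and peroxide defence, 21 genes, had a median of 0.06, heat shock and unfolded protein genes, 34, a median of 0.04, and protein turnover genes, 21, a median of -0.04. Adrenergic signalling (21 genes), immediate early genes (23) and acute phase genes (23) had medians of 0.03, 0.18 and 0.10. Tesc was the only call among 23 calcium handling genes, and Ppara among 18 PPAR isotypes, partners and coregulators.

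The lists of interferon and clock genes had medians above 0 and no call; Irgm2, which rose, is not in the interferon list. Of 32 interferon and antigen presentation genes 28 were above 0, against 5941 of all 10916 genes, with a median of 0.27. Their array means did not overlap between genotypes, nor did those of the clock genes or the cytosolic ribosomal proteins. Such separation was also met by other lists, among them the acyl-CoA thioesterases and the cardiac ion channels. For the ribosomal proteins it was narrow. Relative to the WT mean, the highest WT sham array was at 0.031 and the lowest KO sham array at 0.046. H2-K1, a class I antigen-presenting protein, had a difference of 0.47 ± 0.12, adjusted p = 0.123, and Psmb8, an immunoproteasome subunit, 0.53 ± 0.16, adjusted p = 0.217. Among 19 clock genes the median was 0.36 and the range -0.97 to 2.01. Per3, a repressor of the clock, had a difference of 1.20 ± 0.37, adjusted p = 0.246 and Tef, a clock output factor, 0.61 ± 0.18, adjusted p = 0.219. The sources used here do not give the time of day at which the hearts were taken. The 29 cytosolic ribosomal proteins had a median of 0.17, which was 0.08 after quantile normalization. In the TAC arrays these list medians, KO minus WT, did not stay as high. They were 0.08 for the interferon list, -0.02 for the clock list and -0.11 for the ribosomal list, against 0.03 over all genes.

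**Figure D3:**
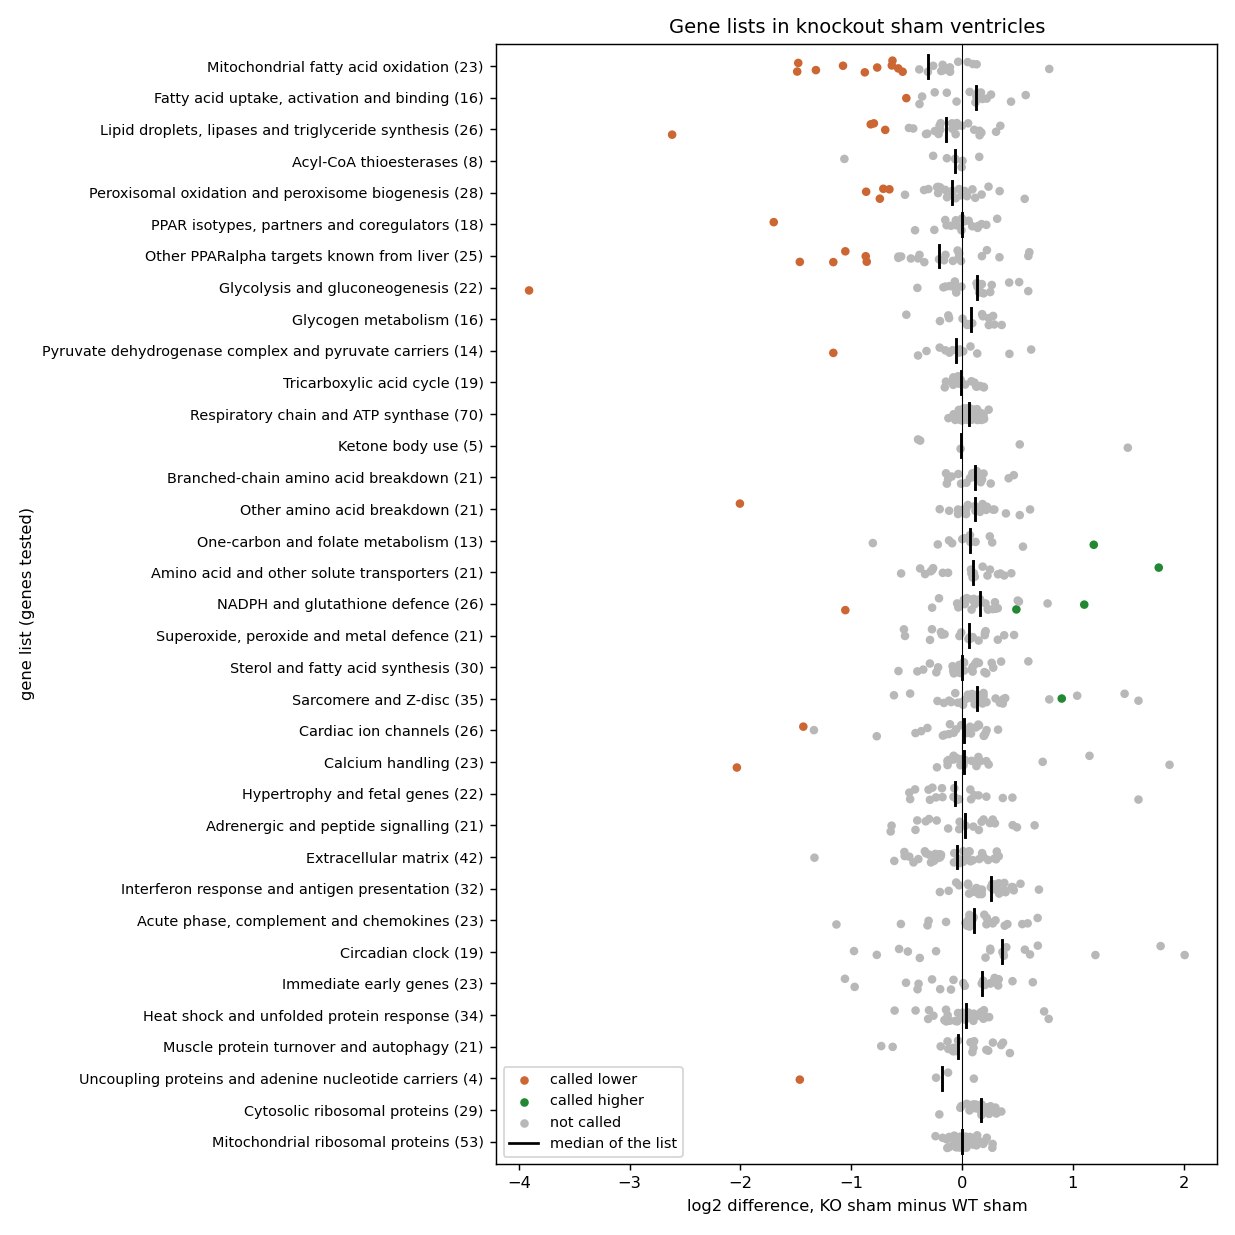
Log2 difference, KO sham minus WT sham, on the horizontal axis for every tested gene of 35 gene lists, with the number of genes in each list after its name; orange and green points are genes called lower and higher, grey points are not called, and the bar is the list median. Of the 23 genes of mitochondrial fatty acid oxidation 10 are orange, the respiratory list spans -0.12 to 0.24, and the lists of interferon and clock genes have medians of 0.27 and 0.36 with no call.

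The same genotypes were also compared in the 8 TAC arrays, which the sham means did not use, although the fit shares 1 estimate of spread. Of the 81 sham calls, 78 differed in the same direction in TAC and 59 were called there too, 45 of the 56 falls and 14 of the 25 rises. The 78 were 55 of the falls and 23 of the rises. Among all genes 45.5% had a difference below 0 in TAC, and 2.46% were called there, 1.14% lower and 1.32% higher. The 59 were 72.8% of the sham calls and 22.0% of the 268 TAC calls. Without overlap and in the same direction, 65 of the 81 separated in TAC, where 9.55% of all genes separated in either direction. With the sham and TAC arrays fitted separately, 23 genes were called the same way in both. Median differences of the 81 genes were -0.76 for the falls and 0.55 for the rises in TAC, against -0.86 and 0.85 in sham.

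**Figure D4:**
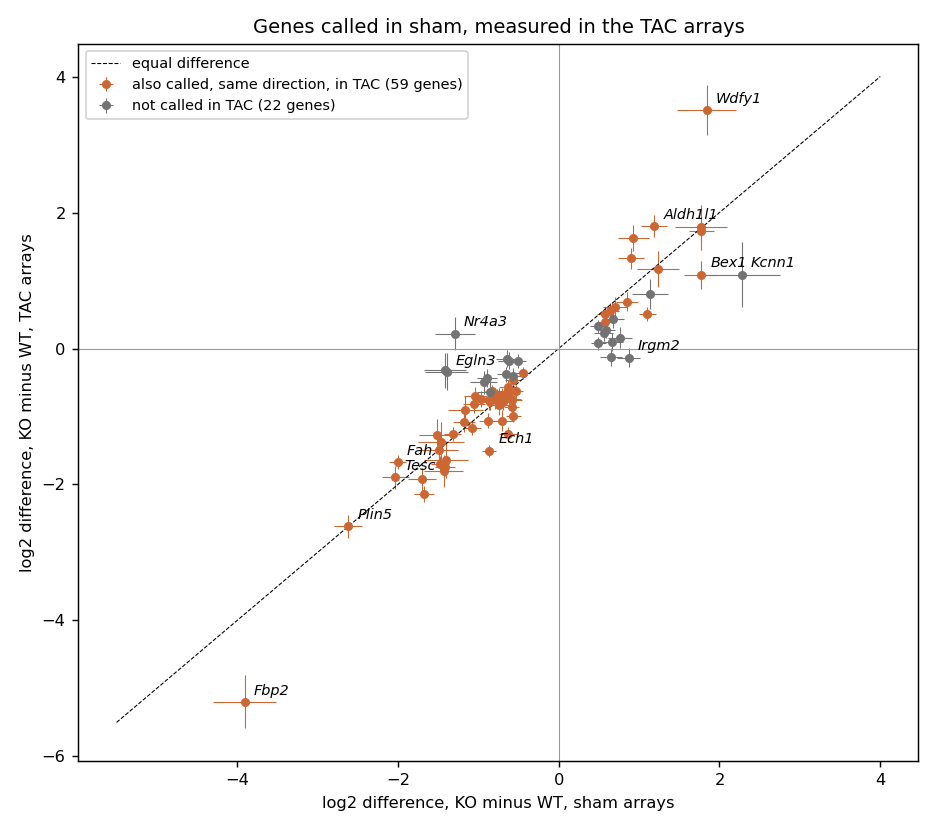
Each point is 1 of the 81 genes called in sham, with its log2 difference KO minus WT in the sham arrays on the horizontal axis and in the TAC arrays on the vertical axis; bars are standard errors, orange points were also called the same way in TAC, grey points were not, and the dashed line marks equal differences. Most points lie in the quadrants of like sign, Fbp2 reaches -3.91 in sham and -5.20 in TAC, and Nr4a3 stands at -1.29 in sham and 0.22 in TAC.

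Fbp2 had a difference of -5.20 ± 0.39, adjusted p = 1.94e-06 in TAC and Plin5 -2.62 ± 0.17, adjusted p = 6.06e-07. Tesc (-1.89 ± 0.17, adjusted p = 1.18e-05), Fah (-1.67 ± 0.10, adjusted p = 2.71e-07) and Plbd1 (-1.75 ± 0.13, adjusted p = 1.61e-06) were called again outside lipid oxidation. Among the rises, Wdfy1 (3.51 ± 0.37, adjusted p = 6.97e-05), Slc38a1 (1.73 ± 0.15, adjusted p = 1.18e-05) and Aldh1l1 (1.80 ± 0.16, adjusted p = 1.34e-05) were called again. The other probe set of Slc38a1 differed by -0.35 in TAC. The TAC arrays took part in choosing the probe set used, so they are no separate check of that choice. The genes with the opposite sign in TAC were Nr4a3 (0.22 ± 0.25, adjusted p = 0.72), Cdk2ap2 (-0.13 ± 0.13, adjusted p = 0.692; 0.65 ± 0.13 in sham) and Irgm2 (-0.13 ± 0.14, adjusted p = 0.707), none of them called in TAC. Egln3 (-0.34 ± 0.27, adjusted p = 0.573), Tmem267 (-0.32 ± 0.26, adjusted p = 0.582) and Kcnn1 (1.09 ± 0.47, adjusted p = 0.262) kept the sign without a call. The sham call was lost (adjusted p in parentheses) for Cdk2ap2 with WT sham 2, WT sham 3, WT sham 4, KO sham 1, KO sham 2 or KO sham 4 left out (0.0694 to 0.124).

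Whether the genotype difference itself changed with TAC was tested by the interaction in the same fit. No gene was called by limma at an adjusted p under 0.05, with 1128 at an unadjusted p under 0.05, 10.3% of all genes, 23 of them among the 81 sham calls. The sham difference that chose the 81 genes also enters their interaction, so the choice itself can raise that count. The smallest adjusted p among the 81 sham calls was 0.125, shared by Ech1 and Irgm2. So a gene called in sham and not in TAC is not shown to differ between the conditions. The count depended on the fit: with a trended prior and robust fitting limma called 13 genes, of which 1 was also called in sham, Ech1 (interaction -0.64, adjusted p = 0.0138). With no filter on dim genes it called 1 gene, and with probe sets averaged per gene 1.

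Several genes have more than 1 probe set, so each call was set beside the others for its gene. Of the 81 called genes 51 had several, and in 32 of these every other probe set had the same sign. In 19 at least 1 differed in sign. Plin5 (-2.83) and Scarb2 (-1.46) are examples of likeness in the other probe set. The rise of Slc38a1 was carried by 1 probe set while the other differed by -0.07. That of Kcnn1 was carried by 1 while the other differed by -0.02. In WT sham the other probe set was the brighter for Slc38a1, at a mean log2 signal of 8.84 against 7.89, and for Kcnn1, at 7.23 against 5.65. In KO sham the probe set used was the brighter, at 9.67 against 8.77 and 7.93 against 7.21. The choice by brightness over all arrays thus drew on the KO arrays for these genes. The fall of Nr4a3 was carried by 1 probe set while the others differed by 0.04 and 1.51. The other bright probe set of Nnt differed by 0.89 and a dim one by -0.10, and averaged over all 3 Nnt differed by 0.63 (adjusted p = 0.568 in limma). Averaged likewise, Prrg1 differed by -0.46 (adjusted p = 0.601). The sources used here do not say which transcripts each probe set reads.

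A direct repeat of the hexamer AGGTCA with any 1 base between the copies is the textbook element for PPAR and its partner. It was sought on both strands, with up to 2 mismatches, from 250 bases before to 50 bases after each transcription start in the RefSeq table of build GRCm38.p6, which held a window for 50 of the 56 falls, 18 of the 25 rises and 8846 of the 10916 genes. No called gene had a match with at most 1 mismatch, which 41 of the 8846 genes (0.464%) had. With up to 2 mismatches, 2 of 50 falls (4.0%) and 1 of 18 rises (5.56%) had one, against 310 of the 8846 genes (3.50%). A match is a description of letters only, and these shares lie near the background. The 3 are shown since they are the only called genes with a match. Capitals mark the match in the Ucp3 promoter, chr7:100472741-100472990 on the plus strand, where it begins 51 bases before the start, and in the Irgm2 promoter, chr11:58214727-58214976 on the plus strand, where it lies 174 bases before the start and reads on the minus strand. For Slc25a20, the carnitine carrier, only the matched letters are given, chr9:108662142-108662154 on the plus strand, 6 bases after the start.
Ucp3: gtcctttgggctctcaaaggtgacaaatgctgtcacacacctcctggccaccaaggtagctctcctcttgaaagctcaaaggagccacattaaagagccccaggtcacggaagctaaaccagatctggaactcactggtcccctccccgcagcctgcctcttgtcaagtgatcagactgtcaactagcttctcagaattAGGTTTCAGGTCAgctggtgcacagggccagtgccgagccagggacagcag
Irgm2: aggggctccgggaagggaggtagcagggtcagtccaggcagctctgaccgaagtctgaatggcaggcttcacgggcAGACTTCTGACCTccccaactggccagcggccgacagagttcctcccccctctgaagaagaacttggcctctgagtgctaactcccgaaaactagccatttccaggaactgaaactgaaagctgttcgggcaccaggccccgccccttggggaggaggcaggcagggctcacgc
Slc25a20: AGGTGAAAGGTCG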

How the data were processed

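Total RNA of left ventricle was measured on 16 arrays, 4 per group. The authors deposited 1 table of signal intensity per probe set, for which the submitters' processing notes name GCOS 1.4; per the deposited values, mean intensity between the 2nd and 98th percentile is 500 on every array. The sources used here do not give that software's settings. Of 45101 probe sets, 64 were controls, 34945 had 1 gene symbol, 932 several and 9160 none in the platform annotation; 34741 of the first were matched to a RefSeq gene and the other 204 kept their old symbol. Deposited intensities were floored at the table's 10th percentile (11.9) and log2 transformed, the brightest probe set over all arrays stood for each of 18193 genes, and the dimmest 40% were set aside. limma 3.58.1 in R 4.3.3 (lmFit, eBayes, two-sided) took the 16 arrays together, with a coefficient for each group. The pipeline was tested on simulated data. Same-numbered sham arrays did not deviate together across genes, so no block was used.

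Genes named are the 15 largest falls and 10 largest rises among called genes whose arrays do not overlap, leaving out transcripts with only a clone or model name, Ppara, and for each list up to 4 called members, or else members with the smallest p; further called genes are named in groups, and other genes named were chosen after their values were seen. The members and the 50 gene lists were chosen with earlier results of these data known. Alternatives varied scaling, floor, filter, probe set rule, fit and arrays left out.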

Additional observations from a re-analysis of the deposited data

Results flagged for a closer look

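Among the genes named and called, 141 were screened in both sham groups, and in 17 of 282 groups of 4 arrays 1 array stood apart from the other 3 by a gap above the 95% critical value of Dixon's test. Chance alone flags about 1 in 20 groups. Values here are log2 signals. Among genes that fell, WT sham replicate 1 stood low for Pdk4 (13.85, the nearest array at 14.56) and Etfdh (13.91 against 14.17) and high for Fuca2 (13.76 against 13.23). WT sham replicate 4 stood high for Scarb2 (12.86 against 12.46), and WT sham replicate 2 for Eci2 (13.08 against 13.02). KO sham replicate 2 stood high for Ech1 (14.87 against 14.66) and low for Ucp3 (7.22 against 8.26), KO sham replicate 1 low for Mlycd (10.14 against 10.38), and KO sham replicate 4 high for P3h4 (8.75 against 8.53).

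Among genes that rose, WT sham replicate 3 stood high for Bex1 (9.89 against 9.41), KO sham replicate 3 high for Scin (9.01 against 8.63), and KO sham replicate 1 high for Slc38a1 (10.07 against 9.57) and low for Gsta4 (12.64 against 12.88). Among genes not called, KO sham replicate 4 stood low for Emcn (11.54 against 12.09), KO sham replicate 2 high for Fabp4 (15.53 against 15.25), KO sham replicate 3 low for Mrps5 (10.05 against 10.15) and WT sham replicate 2 low for Per3 (6.95 against 7.86). No explanation for any of these was tested.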

How the results depend on the processing

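Against the 81 calls, 25 higher and 56 lower, 42 (7 and 35) were made with arrays centred on their medians and 38 (10 and 28) with the sham arrays fitted alone. Rises numbered 12 with no filter on dim genes, 15 when probe sets were averaged per gene and 16 with the replicate number as a block. The block gave 64 calls, 48 of them lower, and 51 of them also in TAC. Same-numbered WT and KO sham arrays correlated at 0.01, -0.06, 0.07 and -0.02 in their deviations from the group means. The TAC arrays were not checked in this way, and a shared batch was not tested. Sham calls also called in TAC numbered 27 with median centring and 23 with sham and TAC fitted separately. The interaction called 1 gene with no filter (Nnat, -3.53, adjusted p = 8.33e-04 in limma, also called in sham), 1 with averaged probe sets and 13 with a trended, robust prior, of which 1 was a sham call (Ech1, -0.64). Leaving out 1 sham array gave 55 to 74 calls, 9 to 27 higher and 42 to 50 lower, 45 to 51 also in TAC, and no interaction call; leaving out WT TAC replicate 3, chosen after seeing the data as the separate fits were, gave 30 rises. With 16, 15, 9 and 11 rises, the fits without WT sham replicates 2, 3 and 4 and KO sham replicate 4 moved most. Signs turned for Nr4a3 (0.087) and Gm20559 (0.027) with averaged probe sets, and for Slc38a1 (-0.071) and Gm20559 (0.68) without probe sets that may cross-hybridise. Named calls kept in the leave-one-out fits were lost for Abcd3, Eci2, Hsd17b4 and Retsat with median centring, for Agpat2, Chkb, Dhrs4, Eci2, Fuca2, Hsd17b4, Irgm2, Retsat and Slc25a20 with the sham arrays alone, and for Abcd3, Aldh1l1, Fuca2, Gpam, Nnt, Prrg1 and Retsat with averaged probe sets. The cause was not tested. A gene near the floor has an understated difference.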
